A study of Mus musculus with 204 samples.

Results

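The K2P potassium channel genes, so called because each channel subunit carries a pair of pore domains, were followed through 204 single cells picked from the myenteric plexus of the mouse distal colon. The 10 genes described are Kcnk1, Kcnk2, Kcnk3, Kcnk4, Kcnk5, Kcnk6, Kcnk9, Kcnk10, Kcnk12 and Kcnk13, taken by name from a table of 49492 gene rows. All 10 have a row in that table. Another 4 genes of the family, Kcnk7, Kcnk15, Kcnk16 and Kcnk18, are given beside them.

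The cells came from VGLUT2-tdTomato mice, a reporter line in which a red fluorescent protein marks cells that use the gene of the vesicular glutamate transporter VGLUT2 (Slc17a6). The muscle layers holding the plexus were dissociated and kept in culture overnight, and red cells were drawn up by hand, so that every cell described here had been cultured. The labels call each cell a neuron of the distal colon and give no age, sex, animal, treatment or genotype beyond the reporter. The cells lie on 3 plates, 66 on plate 1, 66 on plate 2 and 72 on plate 3, and the plate is the batch named in the titles. In the cell descriptions and column names, plates 2 and 3 carry numbered library labels and share a column suffix, unlike plate 1.

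K2P channels are the main carriers of background, or leak, potassium current. Their subunits assemble in pairs and stay partly open at rest, and the potassium that leaves through them holds the resting membrane potential negative and sets how strongly a cell responds to an input. The subfamilies differ in what opens or closes them. TREK channels (Kcnk2, Kcnk10) and the related TRAAK (Kcnk4) respond to membrane stretch, warmth and polyunsaturated fatty acids, and TASK channels (Kcnk3, Kcnk9) close when the outside becomes acid. TWIK channels (Kcnk1, Kcnk6) give small currents, and THIK channels (Kcnk12, Kcnk13) are inhibited by the anaesthetic halothane. Myenteric neurons are stretched and squeezed with every movement of the gut, and several of these channels are regulated by the transmitters they receive.

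The signature of the family is that the potassium filter, the narrowest part of the pore, is encoded in pairs within a single subunit. The stretches of coding sequence around the filters are shown for the 6 members that were found in over 20% of the neuronal cells, with the first filter alone for Kcnk13. They were read 5′ to 3′ from the coding strand of GENCODE M21 transcripts on the GRCm38 assembly, each with 27 bases, and the capitals mark 3 codons of the filter, the outer ones for glycine.
Kcnk1, first filter: tccaccacaGGCTATGGCcacacggtg
Kcnk1, second filter: agcaccatcGGCCTGGGGgactatgtt
Kcnk2, first filter: acaaccataGGATTTGGAaacatctcc
Kcnk2, second filter: acgaccattGGATTTGGAgactacgtg
Kcnk10, first filter: acaaccataGGGTATGGGaatattgct
Kcnk10, second filter: accacagtaGGCTTTGGTgattttgtg
Kcnk3, first filter: accaccatcGGCTATGGTcatgcggcg
Kcnk3, second filter: accaccatcGGCTTCGGCgactatgtg
Kcnk12, first filter: tcgaccataGGTTTCGGCatgacaaca
Kcnk12, second filter: agcaccatcGGCTTCGGGgacctggtg
Kcnk13, first filter: tctaccataGGGTTTGGGatgacaaca
The middle codon of the first filter is TAT in Kcnk1, Kcnk10 and Kcnk3, TTT in Kcnk2 and Kcnk13, and TTC in Kcnk12. In the second filter it is CTG in Kcnk1, TTT in Kcnk2 and Kcnk10, and TTC in Kcnk3 and Kcnk12. The THIK pair, Kcnk12 and Kcnk13, shares the longest exact run of exonic bases of any pair of the 10 members, 26 bases. Runs with mismatches were not searched, and whether reads were counted for the wrong member was not tested.

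In the GRCm38 assembly with GENCODE M21, Kcnk1 lies on chromosome 8 from 125995170 to 126030685 on the plus strand. Kcnk2 lies on the minus strand of chromosome 1 from 189207930 to 189402273, and Kcnk3 on the plus strand of chromosome 5 from 30588170 to 30625271. Kcnk10 (98429437 to 98578310, minus strand) and Kcnk13 (99964499 to 100062682, plus strand) are both on chromosome 12, 1.386 Mb apart. Kcnk12 lies on the minus strand of chromosome 17 from 87745801 to 87797994. The counting strand is not given in the sources used here, and 3 of these genes overlap another gene on the opposite strand. The overlap takes 604 of 4943 exonic bases of Kcnk2 (with A430027H14Rik), 229 of 3976 bases of Kcnk3 (with Gm9899) and 8.01% of 2235 bases of Kcnk1 (with Gm45875). Of the 79 neuronal cells in which Kcnk2 was detected, 25 had no read of A430027H14Rik, and of the 41 with Kcnk3, 20 had no read of Gm9899.

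Reads per cell ranged from 453108 to 14310837, with medians of 3445517, 4571483.5 and 4690952 on plates 1, 2 and 3. Levels are given as CPM, the reads of a gene per 1000000 reads of the cell, and a gene counted as detected in a cell at 10 CPM. A cell was called neuronal where at least 50% of 13 pan-neuronal genes were detected. That held for 75% of the 204 cells (54 on plate 1, 45 on plate 2, 54 on plate 3) and not for the 51 other cells, so by this measure not every picked cell went with its label of neuron. In those 51 cells a median of 3 of the 13 genes was detected. Smooth muscle markers were their most frequent list, carried by 31 of them, followed by fibroblast (16), endothelial (13) and glial (12) lists, where 1 cell can carry several. Such lists were also found in 49 neuronal cells, 35 of them with the smooth muscle list. Median depth was 4159428 reads in the neuronal cells and 3988937 in the others. Since the labels name no animal or culture, a plate is 1 sample and cells are not replicates. No test was made, and a direction is described by whether it held within every plate. Intervals of shares are exact Clopper-Pearson intervals at 95%, and they take in counting error alone.

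At 10 CPM, most neuronal cells had transcripts of at least 2 K2P genes. A neuronal cell held a mean of 2.24 ± 1.48 of the 10 members (SD over the neuronal cells), against 0.353 ± 0.594 in the other cells (n = 51). At least 2 members were detected in 96 neuronal cells (62.7%, interval 54.6 to 70.4%) and in 3 of the 51 other cells (5.88%, interval 1.23 to 16.2%). No member reached 10 CPM in 21 neuronal cells (13.7%) and in 36 other cells (70.6%). The most in 1 cell was 6 members. The mean was 1.92 members in the 49 neuronal cells with a marker list of another type and 2.39 in the 104 without, and 28.6% of the 35 with the smooth muscle list had no member. The part of other cell types in these values was not tested. Neuronal means were 2.80, 1.84 and 2.02 members on plates 1, 2 and 3, and those of the other cells were 0.583, 0.238 and 0.333. The number depends on the threshold, with 3.11 members per neuronal cell at 1 CPM and 0.771 at 50 CPM.

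**Figure D1:**
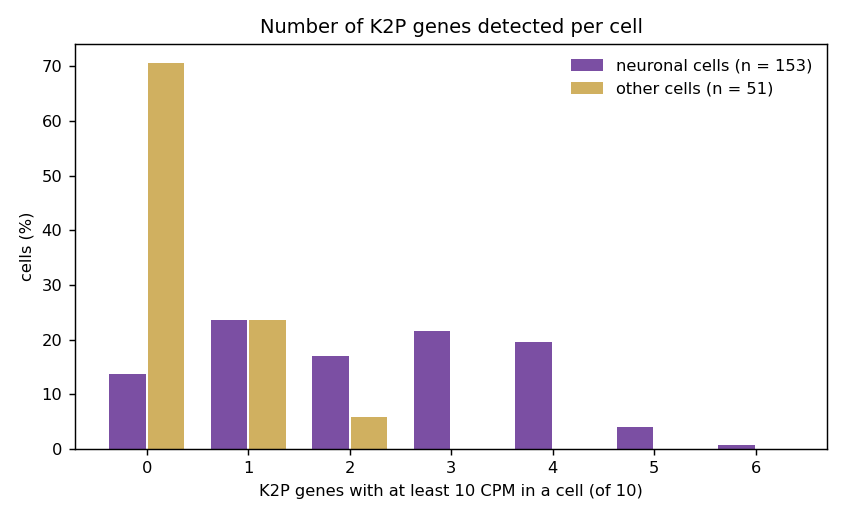
Share of cells (y axis, percent) by the number of the 10 K2P genes detected at 10 CPM or more (x axis), in neuronal and 51 other cells. No gene was detected in 13.7% of the neuronal and 70.6% of the other cells.

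The members fell into 6 that were frequent in neuronal cells and 4 that were rare. The frequent genes were Kcnk2, Kcnk10, Kcnk1, Kcnk12, Kcnk3 and Kcnk13, detected in 79, 72, 56, 44, 41 and 36 neuronal cells. The rare genes were Kcnk5, Kcnk6, Kcnk4 and Kcnk9, detected in 7, 5, 3 and 0 of them.

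Kcnk2, which encodes the stretch- and lipid-sensitive channel TREK-1, was the most frequent member over all plates together. On plate 2, Kcnk10 was detected in more neuronal cells (18 against 15). Kcnk2 was detected in 79 neuronal cells (51.6%, interval 43.4 to 59.8%) and in 0 of the 51 other cells, where 3 cells set an upper limit of 5.88%. By plate the neuronal shares were 64.8%, 33.3% and 53.7%. Levels in neuronal cells ran from 0 to 302 CPM, with medians of 22.9, 0 and 14.4 CPM on plates 1, 2 and 3. The 51 other cells stayed at or below 5.07 CPM, so that every cell above that level was neuronal. TREK-1 has also been described in colonic smooth muscle of the mouse. Of the 31 other cells with the smooth muscle list, 0 held Kcnk2 at 10 CPM (interval 0 to 11.2%).

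Kcnk10, the gene of TREK-2, the closest relative of TREK-1, was detected in 72 neuronal cells (47.1%, interval 38.9 to 55.3%) and in 2 other cells (3.92%). The plate shares in neuronal cells were 59.3%, 40.0% and 40.7%. Its highest level, 340 CPM in cell 29 of plate 1, was also the highest of any member in a neuronal cell. Median levels of the neuronal cells were 13.1, 0.474 and 2.40 CPM on plates 1, 2 and 3, and over all other cells the median was 0. Kcnk4, the gene of TRAAK, was rare, with 3 neuronal cells and 1 other cell at 10 CPM, the highest at 63.2 CPM. It shares 587 exonic bases with Catsperz on the same strand (Tex40 in the table), and 2 of its 3 neuronal cells had reads of that gene, so its few values are uncertain.

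Kcnk1, which encodes TWIK-1, was detected in 56 neuronal cells (36.6%, interval 29.0 to 44.8%) and in 1 other cell (1.96%). Neuronal shares were 48.1%, 33.3% and 27.8% by plate, and levels ran from 0 to 106.9 CPM, with medians of 5.604, 0.136 and 0 CPM. The single other cell, cell 14 of plate 2, held 412 CPM of Kcnk1 (5900 reads), the highest level of any member in any cell. That cell had the deepest library of the series and carried the interstitial cell, leukocyte and epithelial lists. Kcnk6, the gene of TWIK-2, was detected in 5 neuronal cells and 3 other cells. Kcnk7, a relative whose product has given no current when expressed alone, was detected in 8 neuronal cells and 0 other cells.

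Kcnk12, which encodes THIK-2, was detected in 44 neuronal cells (28.8%, interval 21.7 to 36.6%) and in 1 other cell (1.96%). Its share was nearly the same on the plates, at 29.6%, 28.9% and 27.8% of neuronal cells, and no neuronal cell exceeded 97.4 CPM. Kcnk13, the gene of THIK-1, with which THIK-2 can pair, was detected in 36 neuronal cells (23.5%, interval 17.1 to 31.1%) and 3 other cells (5.88%). The Kcnk13 shares of neuronal cells were 29.6%, 15.6% and 24.1% by plate, and its highest neuronal level was 85.3 CPM. Both genes were thus absent at 10 CPM from most neuronal cells, and both reached their highest level of all in a cell that was not neuronal, 100.001 CPM for Kcnk12 and 193 CPM for Kcnk13.

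Kcnk3, which encodes the acid-sensitive channel TASK-1, was detected in 41 neuronal cells (26.8%, interval 20.0 to 34.5%) and 4 other cells (7.84%). The neuronal shares were 31.5%, 26.7% and 22.2% by plate, with a highest level of 102.8 CPM. Kcnk9, the gene of TASK-3, the closest relative of TASK-1, was detected in 0 neuronal cells, for an upper limit of 1.96%. It had reads in 5 neuronal cells, at most 8.42 CPM, and all 5 had Nos1 without Chat. Its deposited values rest on a length of 1209 bases, the length of its coding sequence, while its annotated exons span 12300 bases, so it covers only part of the gene. Kcnk5, the gene of TASK-2, which opens when the outside becomes alkaline, was detected in 7 neuronal and 3 other cells. Of those 7 neuronal cells, 6 also carried the marker list of another cell type, 6 of 49 such cells (12.2%) against 1 of the 104 neuronal cells without one (0.962%). The part of other cell types in the Kcnk5 reads of those cells was not tested. Kcnk15, Kcnk16 and Kcnk18 were detected in 6, 3 and 2 neuronal cells and in 0 other cells.

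**Figure D2:**
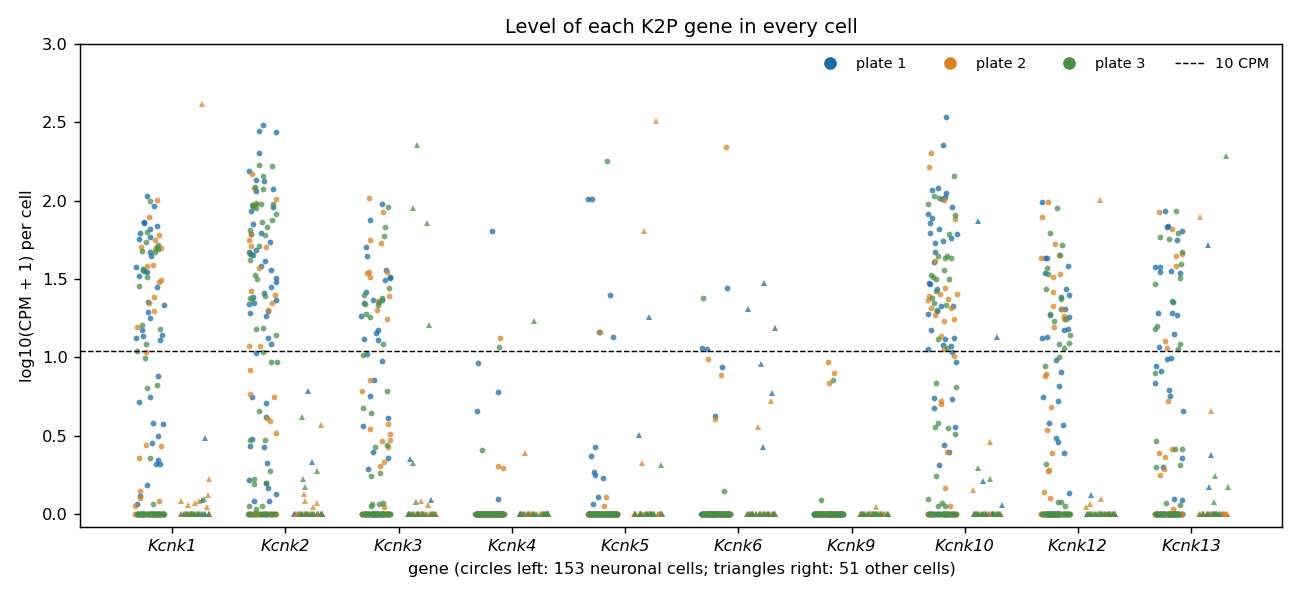
Level of each of the 10 K2P genes in every cell, as log10(CPM + 1), with neuronal cells as circles on the left and other cells as triangles on the right of each gene, coloured by plate; the dashed line is 10 CPM. Kcnk2 stays below the line in all 51 other cells, and Kcnk9 in all cells.

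Per length of gene, the family's RNA in neuronal cells was mainly that of the TREK and TWIK-1 genes. On the RPKM scale (reads per kilobase and 1000000 reads), Kcnk10 had the highest mean level, 10.5 ± 18.7 RPKM (SD over the neuronal cells). Kcnk2 followed at 7.55 ± 11.4, Kcnk1 at 7.02 ± 11.1, Kcnk12 at 5.03 ± 9.64, Kcnk13 at 3.08 ± 6.31 and Kcnk3 at 2.55 ± 5.01 RPKM. Neighbours in this order differed by far less than their spread over cells, and the order was not fixed: Kcnk2 led on plate 3 (7.98 against 7.85 RPKM for Kcnk10), but on plate 2 its 3.83 RPKM lay below Kcnk10, Kcnk1 and Kcnk12. The 10 members together summed to a mean of 37.7 ± 30.5 RPKM in neuronal cells and 12.5 ± 31.7 RPKM in other cells, where the medians were 34.4 and 0.315 RPKM. Kcnk10 made up 27.9% of the neuronal sum, Kcnk2 20.0% and Kcnk1 18.6%. The level of Kcnk10 rests on a length of 2533 bases, below its 8774 annotated exonic bases, so its place in the order depends on that length.

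The neuronal and other cells were then compared within each plate, as the log2 of a ratio of mean CPM after adding 1 CPM to each mean. Of the members, 8 had a mean of at least 1 CPM over all cells and entered this comparison, Kcnk4 and Kcnk9 being too low. A ratio of at least 2 in favour of neuronal cells was found on all 3 plates for 3 of the 8, Kcnk2, Kcnk10 and Kcnk12, where 15.2% of the 18816 genes compared had such a ratio. No member had a ratio of at least 2 in favour of other cells on all plates, against 4.6% of genes. The median of the mean log2 ratios was 2.18 over the 8 members and 0.42 over all genes compared. A higher detected share in neuronal cells on all 3 plates was found for 5 members, the same 3 and Kcnk1 and Kcnk13, against 40.1% of genes, and a lower one for 0 members, against 8.42%.

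Kcnk2 had log2 ratios of 5.09, 4.09 and 4.97 on plates 1, 2 and 3, with means of 50.5, 18.9 and 39.4 CPM in neuronal cells and 0.519, 0.170 and 0.291 CPM in other cells. Leaving out any 1 cell kept the ratios of Kcnk2 between 3.86 and 5.54. Kcnk10 had 2.31, 4.17 and 4.26. On plate 1 that ratio rested on cell 62 among the other cells, without which it was 4.201. Kcnk12 had 3.31, 1.11 and 3.303, and without cell 12 of plate 2, an other cell with the fibroblast list, the middle value was 3.60. With size factors in place of total reads the Kcnk12 ratio on plate 2 was 0.92, below 2-fold.

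The other 3 frequent members did not keep their direction on every plate, and a few other cells held high levels of them. Kcnk1 had log2 ratios of 4.18, -0.39 and 3.63, and 3.86 on plate 2 without cell 14. Kcnk13 had 1.30, 0.69 and -0.22, or 3.52, 2.73 and 3.22 when the highest other cell of each plate (cells 5, 66 and 26) was left out. Kcnk3 had 3.40 and 3.67 on plates 1 and 2 but -1.39 on plate 3, where 4 other cells held it. The Kcnk3 value on plate 3 stayed below 0 without the highest of them (-0.36). Among the rare members, the ratios of Kcnk5 were 1.15, -3.89 and 2.03, and those of Kcnk6 -1.84, 2.24 and 0.52, each resting on 1 or a few cells.

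**Figure D3:**
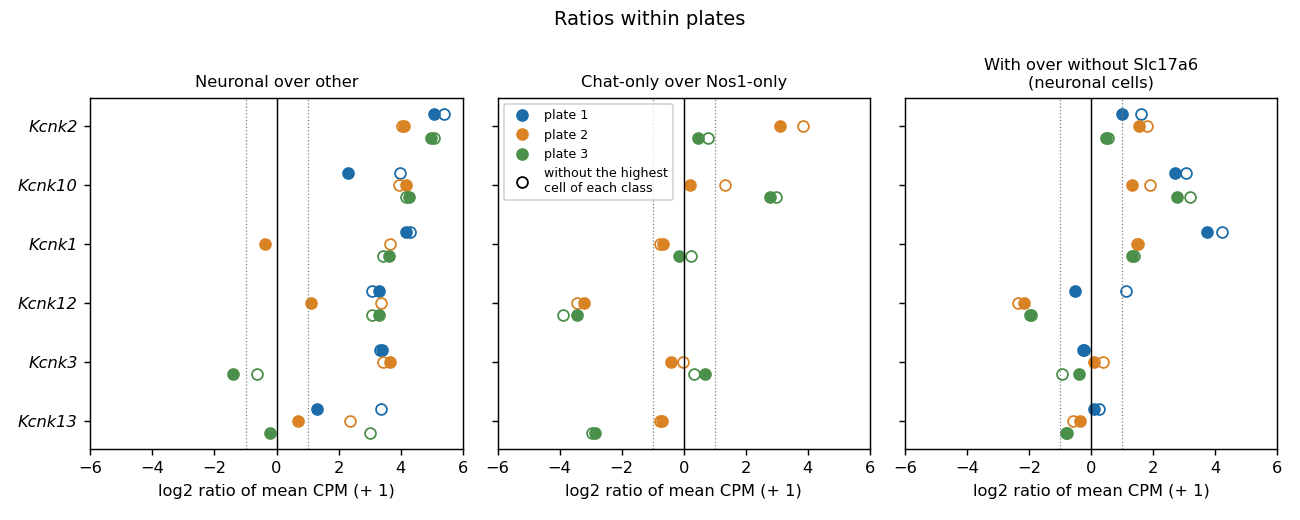
Log2 ratio of mean CPM (+ 1) for the 6 frequent K2P genes on each plate, neuronal over other cells (left), Chat-only over Nos1-only cells (middle) and neuronal cells with over without Slc17a6 (right); filled points use all cells, open points leave out the highest cell of each class, and dotted lines mark a ratio of 2. Kcnk2 lies at 4.09 or above on every plate in the left panel, and Kcnk12 at -3.20 and -3.43 in the middle panel.

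The few other cells with K2P transcripts carried various marker lists, and some lists and cells were shared between members. The 4 other cells with Kcnk3 all carried the smooth muscle list, 4 of 31 such cells (12.9%, interval 3.63 to 29.8%) against 0 of 20 other cells without it. They were all on plate 3 (cells 20, 21, 40 and 49), with 71.0, 89.2, 15.2 and 226 CPM. The 3 other cells with Kcnk13 all carried the leukocyte list, 3 of 9 such cells (33.3%, interval 7.49 to 70.1%) against 0 of 42 without it. One was found on each plate, at 51.3, 77.4 and 193 CPM. THIK-1 is known from microglia, the resident macrophages of the brain. The 3 other cells with Kcnk6 all carried the endothelial list, 3 of 13 such cells (23.1%, interval 5.04 to 53.8%) against 0 of 38 without it, all on plate 1 at 14.5 to 28.9 CPM. Several of these cells carried more than 1 list, and the numbers are small. Kcnk5 reached 323 CPM in cell 29 of plate 2, which carried the glial list alone. Its remaining other cells, cell 2 of plate 2 and cell 11 of plate 1, carried the smooth muscle list among others. Kcnk10 was detected in cells 11 and 62 of plate 1, which both carried the endothelial and interstitial cell lists. Cell 11 thus held Kcnk5 and Kcnk10, and cell 62 held Kcnk6 and Kcnk10.

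Within the neuronal cells, Chat and Nos1 divide the classes. Chat encodes the enzyme that makes acetylcholine, the transmitter of excitatory motor neurons and interneurons, and Nos1 the neuronal nitric oxide synthase of inhibitory motor neurons. By detection at 10 CPM, 56 neuronal cells had Chat only (23, 17 and 16 on plates 1, 2 and 3), 50 had Chat and Nos1 (22, 10 and 18), 30 had Nos1 only (3, 14 and 13) and 17 had neither (6, 4 and 7). Median depth was 4181990, 4254680 and 6261648 reads in the first 3 classes and 1045687 in cells with neither. The part of that lower depth in their shares was not tested. Pooled over plates, the mean number of members was 2.27 in Chat-only cells, 2.78 in cells with both, 1.97 in Nos1-only cells and 1.06 in cells with neither. Chat-only and Nos1-only cells stood in opposite order on plates 2 and 3, at 2.00 against 1.71 and 1.69 against 2.15 members.

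Kcnk2 and Kcnk12 were spread over the classes in opposite ways. By count of cells, Kcnk2 was detected in 39 of 56 Chat-only cells (69.6%, interval 55.9 to 81.2%), 28 of 50 cells with both (56.0%), 7 of 30 Nos1-only cells (23.3%, interval 9.93 to 42.3%) and 5 of 17 with neither. Its share in cells with both differed between plates, at 59.1%, 20.0% and 72.2%. Kcnk12 was detected in 8 of 56 Chat-only cells (14.3%, interval 6.38 to 26.2%), 16 of 50 with both (32.0%), 18 of 30 Nos1-only cells (60.0%, interval 40.6 to 77.3%) and 2 of 17 with neither. The shares in Chat-only and Nos1-only cells thus stood in reverse order for the 2 genes.

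Within plates, Chat-only and Nos1-only cells could be compared on plates 2 and 3, since plate 1 had 3 Nos1-only cells. Kcnk12 was the single member with a ratio of at least 2 in 1 direction on both, at log2 -3.20 and -3.43, where 3.18% of genes were lower in Chat-only cells by this rule and 5.4% higher. Its Chat-only means were 2.11 and 1.69 CPM, against 27.6 and 28.0 CPM in Nos1-only cells, and its shares were 11.8% and 6.25% against 57.1% and 69.2%. The Chat-only cells ran from 0 to 18.1 CPM and the Nos1-only cells of these plates from 0 to 96.95 CPM, so the classes overlapped at the low end. Leaving out any 1 cell kept the ratios between -4.18 and -2.91, although the Chat-only mean of plate 3 rested on few cells and without cell 18 the ratio was -4.18. On plate 1 the shares were 5 of 23 Chat-only cells (21.7%) and 1 of 3 with Nos1 only (33.3%). When classes were set by a Chat to Nos1 ratio of at least 4, which brought in plate 1, the log2 ratios of Kcnk12 were 0.92, -2.14 and -2.67, and 0 members kept a ratio of 2 on all plates.

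Kcnk2 was detected in 64.7% and 62.5% of the Chat-only cells of plates 2 and 3, against 14.3% and 30.8% of Nos1-only cells, in the direction of 25.7% of genes. Its mean ratio was large on plate 2 only, with log2 values of 3.11 and 0.47. Leaving out cell 20, the highest Nos1-only cell of plate 2, gave 4.08 there. Kcnk10 also had higher Chat-only shares on both plates, 47.1% and 37.5% against 21.4% and 15.4%. The log2 ratios of Kcnk10 were 0.19 and 2.77, and without cell 58 of plate 2, a Nos1-only cell, the value there was 1.76. On plate 3 it was 3.46 without cell 34. Kcnk13 had lower Chat-only shares on both plates (17.6% and 12.5% against 28.6% and 38.5%), with log2 ratios of -0.71 and -2.87. Kcnk1 had lower shares as well (17.6% and 12.5% against 28.6% and 15.4%), and together with Kcnk12 these were 3 members, where 18.4% of genes had lower shares on both plates. The Kcnk3 shares of the classes were ordered differently on the plates, 35.3% and 31.2% with Chat only, against 21.4% and 38.5% with Nos1 only.

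By detected share, Kcnk1 stood highest in cells with both Chat and Nos1. It was detected in 34 of 50 such cells (68.0%, interval 53.3 to 80.5%), against 15 of 56 Chat-only cells (26.8%, interval 15.8 to 40.3%), 7 of 30 Nos1-only cells (23.3%, interval 9.93 to 42.3%) and 0 of 17 with neither (upper limit 17.6%). Within every plate, cells with both (68.2%, 80% and 61.1%) stood above Chat-only cells (43.5%, 17.6% and 12.5%). On plates 2 and 3 the Kcnk1 share was lower in Chat-only than in Nos1-only cells, the reverse of their pooled order. Mean levels were 29.6, 37.1 and 27.4 CPM in cells with both and 16.9, 7.34 and 4.18 CPM in Chat-only cells. The log2 ratios were 0.78, 2.19 and 2.45, so that Kcnk1 was below a ratio of 2 on plate 1. On plate 2 the value was 0.89 with size factors in place of total reads, also below a ratio of 2, and 1.40 with cells thinned to 1000000 reads. Without cell 18, a Chat-only cell, the value on plate 3 was 3.58. No member had a ratio of 2 on all plates in this comparison, against 0.5% of genes higher and 1.19% lower. By detected share, Kcnk1, Kcnk10 and Kcnk12 were higher on all plates in cells with both than in Chat-only cells, against 11.8% of genes, and Kcnk3 was lower, against 7.36%. Lower ratios of at least 2 were found for 2 members between cells with both and Nos1-only cells on plates 2 and 3, against 3.71% of genes, Kcnk12 at -1.48 (-2.12 without cell 8) and -2.30 and Kcnk13, which had 0 reads in the cells with both of plate 2. On the same plates, cells with both exceeded Nos1-only cells by log2 ratios of 1.53 and 2.30 in Kcnk1, where 5.08% of genes had a ratio of at least 2 on both. The value of 2.30 was 3.802 without cell 64, a Nos1-only cell. When Chat and Nos1 had to reach 50 CPM, the mean log2 ratio of Kcnk1 between cells with both and Chat-only cells was 0.94 over 2 plates, against 1.81 over 3 plates at 10 CPM.

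By share, Kcnk10 and Kcnk3 separated the same pair of classes in opposite directions. Kcnk10 was detected in 38 of 50 cells with both (76%, interval 61.8 to 86.9%), against 25 of 56 Chat-only (44.6%, interval 31.3 to 58.5%), 7 of 30 Nos1-only cells (23.3%) and 2 of 17 with neither. Its shares in cells with both were 77.3%, 70.0% and 77.8%, against 47.8%, 47.1% and 37.5% in Chat-only cells, but the log2 ratios of the means were only 0.63, 0.75 and 0.34. Without cell 35, its highest cell with both on plate 2, the ratio on that plate was -0.48. Kcnk3 was detected in 7 of 50 cells with both (14.0%, interval 5.82 to 26.7%), against 22 of 56 Chat-only (39.3%, interval 26.5 to 53.2%), 9 of 30 Nos1-only cells (30.0%) and 3 of 17 with neither. The log2 ratios of Kcnk3 were -1.33, -0.35 and -1.18. Pooled over plates, Kcnk13 was detected in 26.0% of cells with both, in 21.4% with Chat alone, in 30.0% with Nos1 alone and in 11.8% with neither, and these shares differed between plates. It had no read in the 10 cells with both of plate 2, while 6 of 18 such cells on plate 3 held it.

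**Figure D4:**
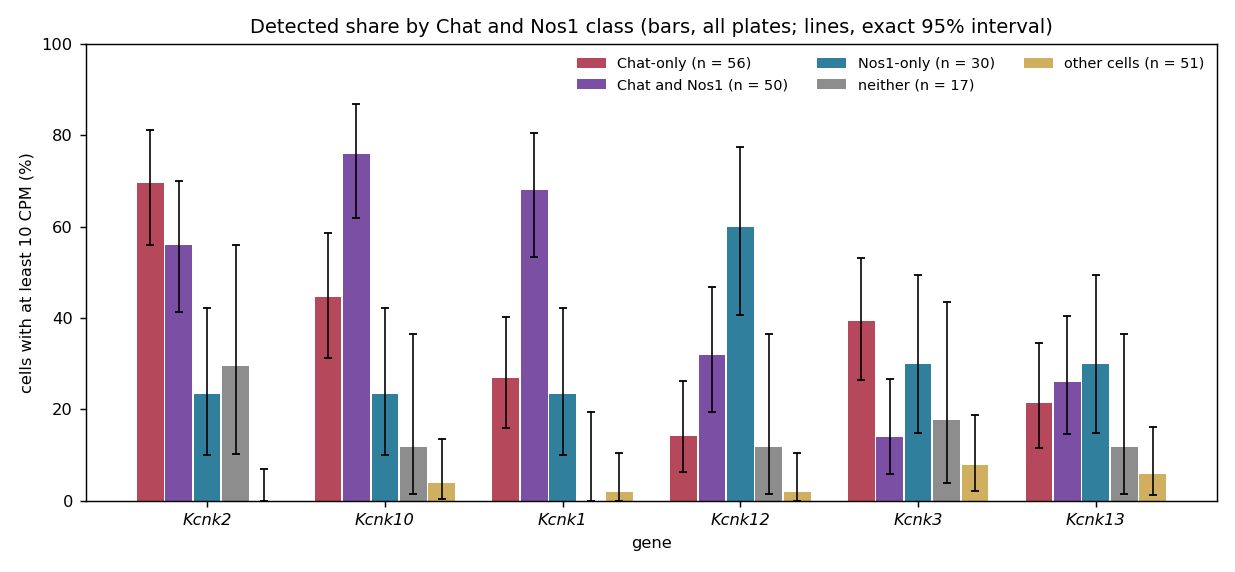
Share of cells with at least 10 CPM of the 6 frequent K2P genes in Chat-only, Chat and Nos1, Nos1-only and neither neuronal cells and in other cells, over all plates; lines are exact 95% intervals. Kcnk1 stands at 68.0% in cells with both transcripts and Kcnk12 at 60.0% in Nos1-only cells.

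Slc17a6, the VGLUT2 gene that the reporter stands for, was detected in 89 neuronal cells (44, 20 and 25 on plates 1, 2 and 3) and not in 64 (10, 25 and 29), with median depths of 4033629 and 4656021 reads. Cells with it had more K2P members, a mean of 2.67 ± 1.34 against 1.64 ± 1.47 in cells without it. Kcnk10 was detected in 58 of 89 cells with Slc17a6 (65.2%, interval 54.3 to 74.96%), against 14 of 64 without (21.9%, interval 12.5 to 34.0%). Kcnk1 was detected in 45 of 89 (50.6%) against 11 of 64 (17.2%), and Kcnk2 in 58 of 89 (65.2%) against 21 of 64 (32.8%). These 3 members had higher shares with Slc17a6 on all plates, against 29.1% of genes, and none of the 8 had lower shares on all plates, against 5.08%.

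By mean level, 2 of the 8 members had a ratio of at least 2 on all 3 plates, where 1.33% of genes were higher and 0.813% lower by this rule. Kcnk10 had log2 ratios of 2.71, 1.33 and 2.76, with means of 47.2, 29.1 and 37.5 CPM in cells with Slc17a6 and 6.39, 11.0 and 4.69 CPM without. The value on plate 2 was 2.42 without cell 58 among the cells lacking Slc17a6, and 0.81 without cell 35, the highest cell that had it, which is below a ratio of 2. On plate 3 it was 3.37 without cell 60. Kcnk1 had log2 ratios of 3.75, 1.47 and 1.32. On plate 1 it was detected in 26 of 44 cells with and 0 of 10 cells without Slc17a6. Kcnk12 went the other way on plates 2 and 3 (-2.17 and -1.95), with -0.51 on plate 1, or 1.26 there without cell 43.

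Of the 89 cells with Slc17a6, 83 had Chat, so the comparison was repeated in neuronal cells with Chat, 17 against 10 on plate 2 and 25 against 9 on plate 3. Kcnk10 kept log2 ratios of 2.58 and 1.74 with over without Slc17a6, and was the single member with a ratio of at least 2 on both plates, against 3.33% of genes, while 0 members had a ratio of at least 2 the other way, against 2.04%. Kcnk1, Kcnk2, Kcnk10 and Kcnk13 had higher shares with Slc17a6 on both plates, against 33% of genes, and Kcnk12 had lower ones, against 11%. Without cell 60 of plate 3 the Kcnk10 value of 1.74 was 2.86. The shares of Kcnk10 were 12 of 17 and 17 of 25 with Slc17a6, against 3 of 10 and 3 of 9 without. Kcnk1 had 1.44 and 0.33 there, and Kcnk2 had 0.90 and -0.02.

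Plate 1 stood apart. All 8 members compared were detected in a larger share of neuronal cells on plate 1 than on either other plate, as were 55.8% of all genes. The gap to plate 2 was widest for Kcnk2 (64.8% against 33.3%), which on plate 3 was detected in 29 of 54 neuronal cells. For Kcnk12 the gap to either plate was nearly nil (29.6% against 28.9% and 27.8%). Plate 1 also held the fewest Nos1-only cells, 3 of 54 neuronal cells, and the most with Slc17a6, 44 of 54, so the plate and the mix of classes cannot be told apart in values pooled over plates. It was also labelled apart from plates 2 and 3, and the part of that batch difference in its values was not tested.

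Members were also compared with each other in the same cells. Kcnk1 and Kcnk10 were detected together in 44 neuronal cells (28.8%, interval 21.7 to 36.6%), where the product of their shares is 17.2%. Kcnk10 was thus found in 78.6% of the cells with Kcnk1, and Kcnk1 in 61.1% of those with Kcnk10. Spearman's rho between the CPM of these genes was 0.49, 0.34 and 0.45 over the 54, 45 and 54 neuronal cells of the plates. Both genes of a pair are read from the same library of a cell, and the cells differ in class and depth. The part of class and depth in these values was not tested. The TREK genes Kcnk2 and Kcnk10 were together in 46 cells (30.1%, product 24.3%). Of the 36 cells with Kcnk13, 26 had Kcnk10 (72.2%) and 13 had the other THIK gene, Kcnk12 (36.1%). As shares of all neuronal cells, these pairs stood at 17.0% (product 11.1%) and 8.50% (product 6.77%). Kcnk2 and Kcnk12 were together in 17 cells (11.1%, product 14.8%), with a rho of -0.36, -0.18 and -0.05. On plate 2 their shared 11.1% lay above the product of 9.63%. Kcnk1 and Kcnk3 were together in 11 cells (7.19%, product 9.81%).

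**Figure D5:**
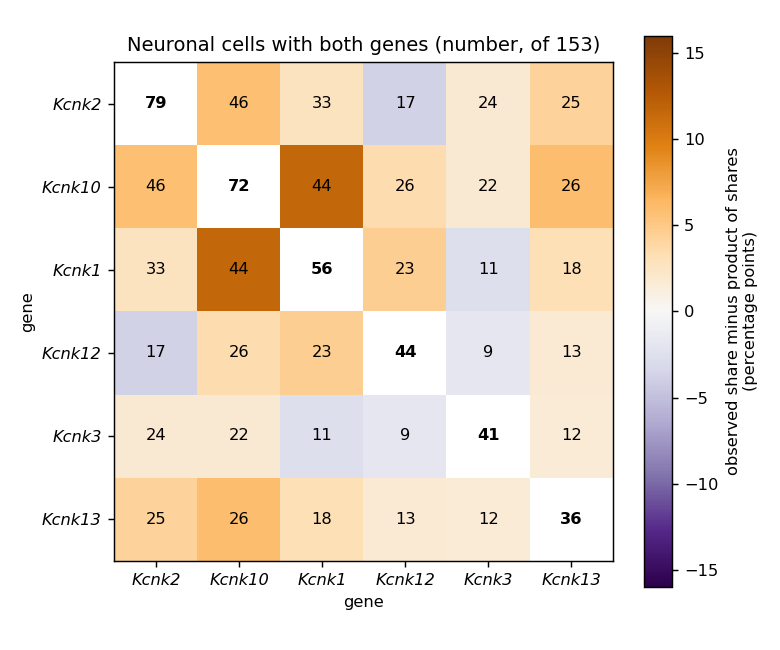
Number of neuronal cells with both genes of each pair of the 6 frequent K2P genes, and on the diagonal with each gene; colour gives the observed share minus the product of the single shares, in percentage points. The pair of Kcnk1 and Kcnk10 has 44 cells (28.8% against a product of 17.2%).

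The genes most like each member were sought among 8853 genes detected in at least 25% of neuronal cells on every plate (predicted, mitochondrial and ribosomal protein genes left out), by the smallest of the 3 plate values of Spearman's rho over neuronal cells. For Kcnk10 they were Sgpp2, a sphingosine phosphate phosphatase gene (0.59), Glp1r, the receptor gene for glucagon-like peptide 1 (0.58), and Lrrn3 (0.56). For Kcnk1 they were the death receptor gene Tnfrsf21 (0.52), the kinase gene Plk2 (0.46) and the receptor tyrosine kinase gene Tyro3 (0.44). For Kcnk2 they were Ramp1, whose product is part of the receptor for calcitonin gene-related peptide (0.45), the neuronal enolase gene Eno2 (0.43) and the sodium channel subunit gene Scn2b (0.42). For Kcnk12 they were the adrenergic receptor gene Adra2c (0.38), Sema6d (0.37) and Nat6 (0.37). The likeness was closest for Kcnk10. By the same measure, Kcnk10 ranked 42 among the genes most like Kcnk1, and Kcnk1 ranked 207 among those most like Kcnk10. The remaining members did not reach 25% of neuronal cells on every plate.

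Genes whose products bind or regulate K2P channels were set beside the members in the comparison of neuronal with other cells. Of 15 such partner genes, 4 had a ratio of at least 2 in favour of neuronal cells on all plates (Ywhag, Ywhah, Akap5 and Map2, named after their values were seen) and 0 in favour of other cells, where 15.2% and 4.6% of all genes did, and the median log2 ratio was 0.67 against 0.42 over all genes. The most frequent partners, the 14-3-3 genes Ywhag, Ywhah and Ywhaz, which carry TASK channels to the cell surface, were detected in 100% of neuronal cells and in 46, 46 and 50 of the 51 other cells. The sodium leak and pump genes, whose currents oppose or balance the potassium leak, had a median log2 ratio of 3.62. Of these 10 genes, 6 had a ratio of at least 2 in favour of neuronal cells on all plates and 0 in favour of other cells, beside the same 15.2% and 4.6% of all genes. By detected share, 3 of the 15 partner genes were higher in neuronal cells on all plates and 0 were lower. Of the 10 leak and pump genes, 6 were higher and 1 was lower, where 40.1% and 8.42% of all genes were. The sodium leak channel gene Nalcn and its partners Unc79 and Unc80, also named after their values were seen, were detected in 26.1%, 60.1% and 77.1% of the neuronal cells and in 0 of the other cells. Among the most frequent of this list were the pump subunit genes Atp1b1 and Atp1b3, in 96.7% and 91.5% of neuronal cells and in 39.2% and 88.2% of other cells.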

How the data were processed

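The deposited values are log2(RPKM + 1) per gene and cell, the base and the added 1 being read from the values. Per the submitters' processing notes the build is mm10. Which aligner and counter made the values, and on which strand, was not given in the sources used here. Polyadenylated RNA was prepared with a plate kit without molecular identifiers, per the labels' protocols, so reads and not molecules are counted. With the log2 undone, 100% of 2375655 values above 0 came out as whole reads, within 0.0001 of a read, once multiplied by the length of the gene and the cell's total. Lengths came from GENCODE M21 for 31365 genes, and for 6270 the smallest length that made all values whole was used. CPM is these reads per 1000000 of the cell's total. Ratios add a pseudocount of 1 CPM, use plates with at least 5 cells of each class, and need a mean of 1 CPM over all cells. The ratio understates differences of low genes. Of 6846 pairs of cells within plates, 0 held identical values. A share of 0 has the limit given by 3 cells. Named genes are the 14 of the family, the 3 most frequent of each list, the 3 most like each frequent member, and Chat, Nos1 and Slc17a6. 1 gene that this rule names and 1 sequence are not reported here. Members and lists were chosen with earlier results of these data known. The design assumed read counts. No count model was used, because cells are not replicates. Scripts used Python 3.11.15, numpy 2.4.6 and scipy 1.17.1 and were tested on simulated data. There the ratio rule for neuronal over other cells called 4 of 50 genes with a true log2 ratio of 1 and 44 of 50 with 2. Most simulated differences of 2-fold were thus missed, and the comparisons between neuronal classes were not simulated. Alternatives changed thresholds, scaling, depth, the class rules and the plates used.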

Additional observations from a re-analysis of the deposited data

How the results depend on the processing

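The mean number of members per neuronal cell was 2.24 at 10 CPM, 3.11 at 1 CPM and 0.771 at 50 CPM, and between 1.94 and 2.42 under the other alternatives tried. The count of members with a ratio of 2 between neuronal and other cells on all plates was 3, and it was 5 without plate 2 (Kcnk1 and Kcnk5 added), 4 without plate 3 (Kcnk3 added) and 5 without the highest cell of each class (Kcnk1 and Kcnk13 added). The share of all genes with such a ratio was 15.2%, and 20.3%, 21.5% and 18.3% under these 3 settings. With size factors it was 2, without Kcnk12. The count between Chat-only and Nos1-only cells was 1, Kcnk12, where 3.18% of genes were lower in Chat-only cells and 5.4% higher. It was 2, with Kcnk10 higher in Chat-only cells as well, after thinning to 1000000 reads, which left 138 neuronal and 47 other cells, in cells with no marker list of another type, and without the highest cell of each class. It was also 2 with classes at 50 CPM (Kcnk13 added, a setting chosen after seeing the data), and 0 with classes by a Chat to Nos1 ratio of 4. The causes of these shifts were not tested. The count of members with higher neuronal shares on all plates, 5 beside 40.1% of genes at 10 CPM, stayed between 4 and 7. Shares of all genes under the alternatives are not given here for this count, for size factors or for the Chat-only and Nos1-only counts. Whether those counts moved with the shares of all genes was therefore not examined. Over the alternatives run, the mean log2 ratio lay between -3.81 and -1.30 for Kcnk12 (Chat-only over Nos1-only), between 0.94 and 2.32 for Kcnk1 (Chat and Nos1 over Chat-only) and between 1.88 and 2.73 for Kcnk10 (with over without Slc17a6); these 3 values were added after seeing the data. None of these counts and means over plates turned its direction. No paired analysis was possible because the replicate numbers only name cells and these values come from no test; every ratio was taken within plates. Libraries were as small as 453108 reads.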
